A study of Mus musculus with 3 samples.

Results

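The transcription factors that set and keep the identity of macrophages were followed in mouse bone marrow-derived macrophages (BMDMs) under 3 stimulations. The set was PU.1 (gene Spi1), C/EBPα, C/EBPβ, and C/EBPδ (Cebpa, Cebpb, and Cebpd), c-Maf (Maf), LXRα (Nr1h3), and PPARγ (Pparg). Members were all probes whose gene name on the array was one of these symbols, control spots excluded. Of the 7 symbols, 6 were found as written, and Spi1 was found under its older symbol Sfpi1, whose transcript accession the RefSeq table assigns to Spi1. The 7 genes had 9 probes and 18 spots, out of 34821 gene names and 59305 spots. All 9 probes were well above background, by the scanner software's own mark, on every array.

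The cells came from C57BL/6J mice, as bone marrow grown into macrophages with M-CSF from conditioned medium, and were stimulated for 20 h. The first array held BMDMs given CpG, a DNA ligand of TLR9. The next held BMDMs given IFN-γ + αIL-10R, that is interferon-γ with a blocking antibody to the IL-10 receptor (IFN-g+IL-10RB in the labels), and the last held BMDMs given all of these agents (Triple). There was 1 array per condition and none of unstimulated cells, so that the differences below are between stimulated cells, have no replicate check, and carry no p-value. Whether cells of several mice were pooled is not given in the sources used here.

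PU.1 is an ETS-family factor that opens chromatin at macrophage genes together with the C/EBP proteins. C/EBPα acts mainly in myeloid differentiation, whereas C/EBPβ and C/EBPδ are induced during inflammation and drive cytokine and acute-phase genes. c-Maf is known for Il10 and for the complement C1q genes, and LXRα and PPARγ are nuclear receptors that pair with RXR and switch on genes of cholesterol efflux and of lipid uptake and storage.

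The sequences that carried the measurements were 60-base probes, and for the 4 genes that passed 2-fold in any comparison they are shown 5′ to 3′ in lower case. Positions are those of the array design on mm9. The Spi1 probe is given whole, because its 60 bases were spread over 13788 bases of chr2:90939665-90953452 and so lie in more than 1 exon. Of the others the first 30 bases are shown, and each lay in 1 unbroken stretch, of Cebpa at chr7:35906517-35906576, of Cebpd at chr16:15888459-15888518, and of Nr1h3 at chr2:91024250-91024309 and chr2:91024345-91024404 on the minus strand. Exon and UTR annotation of mm9 was not used here.
Spi1: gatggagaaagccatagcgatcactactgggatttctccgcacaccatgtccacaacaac
Cebpa: ttttgttttggttttgctctgattcttgcc
Cebpd: gacatttccgacagacttttgtagataaga
Nr1h3, main probe: aacgttgtataccatctgaagaccttgttg
Nr1h3, second probe: tcctgggagctgggtgaaggagagagcctt

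The promoters of the genes with the largest rise and the largest fall in Triple were compared in the 250 bases before the transcription start, as given by RefSeq on GRCm38.p6. Windows were found for 4 of the 7 genes (Cebpa, Cebpb, Nr1h3, and Pparg), 7 windows in all. Spi1, Cebpd, and Maf had none in the table. Motifs of 6 kinds were searched on both strands, and matches are in capitals. They were the core TATAAA of the TATA box, the ETS core GAGGAA that PU.1 prefers, and the paired C/EBP site written as TTNNGNAA. For the factors downstream of interferon and TLR9, the STAT site was written as TTCNNNGAA, the NF-κB site as GGGNNNTTC, and the paired IRF site as GAAANNGAA. The first Nr1h3 window (chr2:91195117-91195366, minus strand) held none of these letters, and the Cebpa window (chr7:35119043-35119292, plus strand) held TATAAA at -30, counted from the start to the first base of the match.
Nr1h3: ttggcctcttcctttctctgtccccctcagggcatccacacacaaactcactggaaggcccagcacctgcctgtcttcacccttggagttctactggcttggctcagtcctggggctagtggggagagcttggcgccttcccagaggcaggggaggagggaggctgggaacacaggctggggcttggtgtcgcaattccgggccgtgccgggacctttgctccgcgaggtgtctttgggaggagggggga
Cebpa: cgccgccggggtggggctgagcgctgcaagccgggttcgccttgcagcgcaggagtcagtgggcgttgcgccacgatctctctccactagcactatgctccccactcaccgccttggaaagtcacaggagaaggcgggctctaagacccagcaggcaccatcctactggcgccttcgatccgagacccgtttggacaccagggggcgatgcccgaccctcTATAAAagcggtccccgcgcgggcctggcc

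Among all 32851 RefSeq windows of this length, TATAAA was found in 12.37%, GAGGAA in 23.25%, and TTNNGNAA in 36.85%. TTCNNNGAA was found in 7.02%, GGGNNNTTC in 11.82%, and GAAANNGAA in 7.129%. The second Nr1h3 window and the Cebpb window held none of these letters. Of the 3 Pparg windows, 1 held none, 1 held GAGGAA at -240 and TATAAA, on the opposite strand, at -29, and 1 held TTNNGNAA at -16 and, on the opposite strand, at -215. No match overlapped another. These are matches of letters in a short window and not measured binding.

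Signals are processed intensities of the scanner software, with 60-base probes read in 1 colour. For folds, log2 signals were shifted by the 75th percentile of each array, taken over the probes that all 3 arrays measured well above background. The percentiles were close, at 4378 for Triple, 4473 for IFN-γ + αIL-10R, and 4550 for CpG. Of the spots, 44.4% to 46.0% were well above background and 0 were saturated. Probes with replicate spots varied with an SD of 0.08 to 0.10 on the log2 scale within an array, so that the technical SD of a log2 fold was 0.12 to 0.13 and 2 such SD are a fold of about 1.2. Of the 7 genes, only Pparg had replicate spots, so that for the others this SD comes from other probes. This spread covers spots of 1 array only. It does not cover labeling, hybridization, or cultures. The scanner software's own error was larger, at 10.0% to 10.5% of the signal for the probes of the 7 genes. Folds were not read against that error. A gene counted as higher when its signal in the first array was well above background and exceeded that of the second by more than 2-fold, and as lower in the reverse case, which is a rule of size.

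The labeled cell type was checked against markers. All 7 measured macrophage markers, such as Adgre1 (F4/80) and Csf1r (the M-CSF receptor), were well above background on each of the 3 arrays. Their summed signal was 522271 in Triple, 572568 in IFN-γ + αIL-10R, and 610772 in CpG, most of it from Csf1r, Cd68, and Adgre1. In Triple over IFN-γ + αIL-10R, Cd14 was more than 2-fold higher and Cd68 lower, beside 3.53% and 5.01% of all genes. For CpG over IFN-γ + αIL-10R, Cd14 and Itgam were higher and Mertk and Fcgr1 lower, beside 2.75% and 3.18%. For Triple over CpG, Mertk was higher and 0 were lower, beside 4.08% and 4.55%. The NK cell, mast cell and basophil, and erythroid markers (2, 2, and 3 measured) were not above background on any array. Of the T cell, B cell, and fibroblast lists, with 4, 3, and 4 genes, 2 to 3 were above background, with summed signals of 968 to 1050, 158 to 874, and 326 to 539. The B cell sum was highest in CpG and lowest in Triple, and Cd79b carried it, with 801 in CpG, 182 in IFN-γ + αIL-10R, and 108 in Triple, log2 folds of -2.84 for Triple over CpG and 2.11 for CpG over IFN-γ + αIL-10R. Cd3d, Cd3g, Ms4a1, and Pdgfra were not above background on any array. Among the 7 neutrophil markers 4 to 5 were above background, with summed signals of 3844, 9448, and 4873 in the order CpG, IFN-γ + αIL-10R, and Triple, and Mpo and Ngp were not above background on any array. Ly6g gave most of this sum in IFN-γ + αIL-10R and Triple, with 555, 7699, and 2658. Elane gave most of it in CpG, with 2839, 1615, and 1539. S100a8 had 297, 55.7, and 517. S100a9 had 58.0 in CpG and 38.3 in IFN-γ + αIL-10R and was not above background in Triple. Camp had 72.9 in CpG and 139 in Triple and was not above background in IFN-γ + αIL-10R. The other Camp probe gave log2 folds of 0.92 for Triple and -0.24 for CpG over IFN-γ + αIL-10R. Of the 7 neutrophil markers, 2 were more than 2-fold higher and 1 lower in Triple than in IFN-γ + αIL-10R. The shares over all genes were 3.53% and 5.01%. Of the 5 dendritic cell markers 1, 3, and 4 were above background, with summed signals of 36126, 38006, and 30095, of which Siglech gave 36076, 35974, and 29736. Clec9a, another of these markers, was at 1963 in IFN-γ + αIL-10R and 152 in Triple and not above background in CpG. The part of such cells in the results was not tested, and in bulk RNA fewer cells of a type and less RNA per cell cannot be told apart.

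Compared with IFN-γ + αIL-10R, Triple had higher signals of Nr1h3, Cebpd, and Spi1, and a lower signal of Cebpa. These were 3 of 7 genes more than 2-fold higher and 1 of 7 more than 2-fold lower. Of all 33597 genes measured, 8.54% passed the same rule in either direction, 3.53% higher and 5.01% lower. Among the 15891 genes well above background in every condition, to which the 7 belong, the shares were 13.4%, 5.13%, and 8.24%. The median log2 fold of the 7 was 0.91, beside -0.04 for those 15891 genes.

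CpG compared with IFN-γ + αIL-10R had higher signals of Cebpd and Nr1h3, which were 2 of 7 genes, with 0 of 7 lower. The shares over all genes were 5.93% in either direction, 2.75% higher and 3.18% lower, and over the genes above background on all arrays 8.58%, 3.74%, and 4.84%. All 7 log2 folds were above 0, with a median of 0.66, and the median of the genes well above background was -0.0016. Triple compared with CpG had a higher signal of Nr1h3 and a lower signal of Cebpa, 1 of 7 each way, beside 8.63% of all genes in either direction, 4.08% higher and 4.55% lower, and 13%, 5.99%, and 7% of the genes above background on all arrays. The median of the 7 was -0.16, beside -0.05. Each array entered 2 of these 3 comparisons, so they are not independent, and the values of each are given side by side below.

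**Figure D1:**
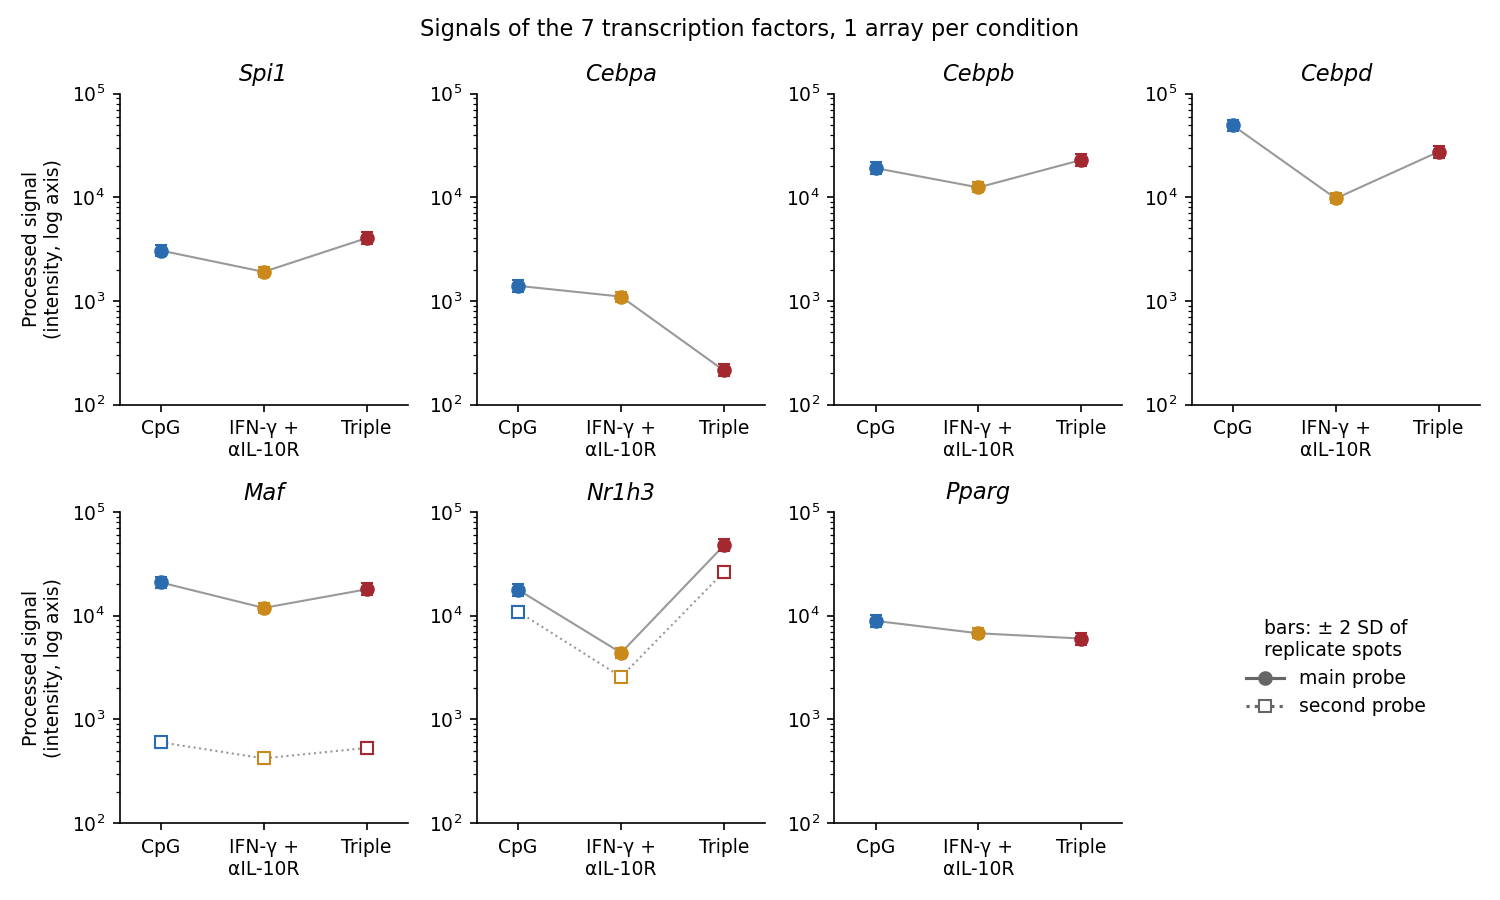
Processed signal (intensity, log axis) of each gene on the 3 arrays, 1 array per condition. Filled circles are the main probe, and open squares are the second probe of Maf and Nr1h3. Bars are ± 2 SD of replicate spots, with 1 SD per array pooled over all probes that had replicate spots. Among these genes only Pparg had such spots. Nr1h3 ran from 4388 to 47660, Cebpa fell to 214 in Triple, and Pparg stayed between 6026 and 8913.

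Spi1 encodes PU.1, the factor without which macrophages do not form. Its signal was 3061 in CpG, 1908 in IFN-γ + αIL-10R, and 4032 in Triple, highest in Triple and lowest in IFN-γ + αIL-10R. Triple was 2.16-fold above IFN-γ + αIL-10R, a log2 fold of 1.11, which is 8.86 technical SD and only just past 2-fold. Spike-in scaling took it to 0.97, under 2-fold. CpG over IFN-γ + αIL-10R gave a log2 fold of 0.66 and Triple over CpG gave 0.45, both beyond 2 technical SD and neither past 2-fold.

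Cebpa encodes C/EBPα, which pairs with PU.1 in myeloid differentiation and restrains division. It had a signal of 1399 in CpG, 1101 in IFN-γ + αIL-10R, and 214 in Triple. The arrays with CpG alone and IFN-γ + αIL-10R alone lay close together, and Triple was far below both. Triple was 5.05-fold below IFN-γ + αIL-10R (log2 fold -2.34) and 6.30-fold below CpG (log2 fold -2.66), whereas CpG was 1.25-fold above IFN-γ + αIL-10R (log2 fold 0.32, 2.61 technical SD). Among those 15891 genes, it ranked 105 from the lowest for Triple over CpG and 236 for Triple over IFN-γ + αIL-10R. Of the 7 genes it was the only one more than 2-fold lower in any comparison, under each of the 13 alternatives at this threshold.

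Cebpb encodes C/EBPβ, the inflammatory C/EBP protein of activated macrophages. The signal was 19082 in CpG, 12425 in IFN-γ + αIL-10R, and 22863 in Triple. The order was that of Spi1, with Triple highest and IFN-γ + αIL-10R lowest, but the steps were smaller. Triple over IFN-γ + αIL-10R was 1.88-fold (log2 fold 0.91), which did not pass 2-fold, although it did, at 1.02, both in the authors' table and with the percentile of all probes. CpG over IFN-γ + αIL-10R gave a log2 fold of 0.59, and Triple over CpG gave 0.32, or 2.37 technical SD.

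Cebpd encodes C/EBPδ, an immediate-early partner of C/EBPβ in TLR responses. It was at 49209 in CpG, 9731 in IFN-γ + αIL-10R, and 27426 in Triple, so that CpG alone gave the highest signal. CpG was 4.97-fold above IFN-γ + αIL-10R (log2 fold 2.31), rank 104 from the highest of the 15891 genes. Triple was 2.88-fold above IFN-γ + αIL-10R (log2 fold 1.53) and 1.73-fold below CpG (log2 fold -0.79), the last not past 2-fold but 5.90 technical SD.

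The 3 C/EBP genes thus had 3 orders over the same arrays. Cebpa was lowest in Triple, Cebpb was highest in Triple, and Cebpd was highest in CpG.

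Maf encodes c-Maf, a bZIP factor that binds the Il10 promoter in macrophages. Its main probe, at chr8:118227736-118227795 on mm9, gave 20933 in CpG, 11896 in IFN-γ + αIL-10R, and 17971 in Triple. Both arrays with CpG were above the array without it, by a log2 fold of 0.79 for CpG and 0.63 for Triple, and neither was past 2-fold. Triple over CpG, at -0.16, was within 2 technical SD. The second probe, at chr8:118207273-118207332, was dimmer, with signals of 602, 421, and 531, and log2 folds of 0.49, 0.36, and -0.12 in the same order. The order of the arrays was the same on both probes, but the sizes were smaller on the second.

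Nr1h3 encodes LXRα, the oxysterol receptor of cholesterol efflux. The main probe gave 17776 in CpG, 4388 in IFN-γ + αIL-10R, and 47660 in Triple. This was the largest spread among the 7 genes, with Triple well above CpG and CpG well above IFN-γ + αIL-10R. Triple was 11.1-fold above IFN-γ + αIL-10R (log2 fold 3.47), rank 65 from the highest of the 15891 genes. CpG was 3.98-fold above IFN-γ + αIL-10R (log2 fold 1.99, rank 156), and Triple was 2.79-fold above CpG (log2 fold 1.48, rank 552). The second probe, in the same gene and also measured in 1 spot, gave 10930, 2574, and 26466, with log2 folds of 3.39, 2.06, and 1.33. It was thus past 2-fold in all 3 comparisons on both probes.

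Pparg encodes PPARγ, the fatty acid receptor of lipid-handling macrophages. It was printed as 10 spots per array at chr6:115440213-115440272 on mm9, so that its technical error could be read directly. The mean was 8913 in CpG (spots 8506 to 9152), 6774 in IFN-γ + αIL-10R (6580 to 7009), and 6026 in Triple (5732 to 6386). The SD of the spots was 0.04, 0.03, and 0.07 on the log2 scale. Spots of the 3 arrays did not overlap, but the arrays differed little, with log2 folds of -0.14 for Triple over IFN-γ + αIL-10R, -0.51 for Triple over CpG, and 0.37 for CpG over IFN-γ + αIL-10R. None passed 2-fold. The first was within 2 technical SD. That SD is of single spots and is too wide for a mean of 10 spots, but replicate spots do not cover scaling between arrays. Over the 13 alternatives, the log2 fold for Triple over IFN-γ + αIL-10R ran from -0.28 to -0.02, so that its size depended on the scaling. The 2 nuclear receptor genes therefore moved unlike each other, as Nr1h3 was highest in Triple and Pparg was highest in CpG.

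**Figure D2:**
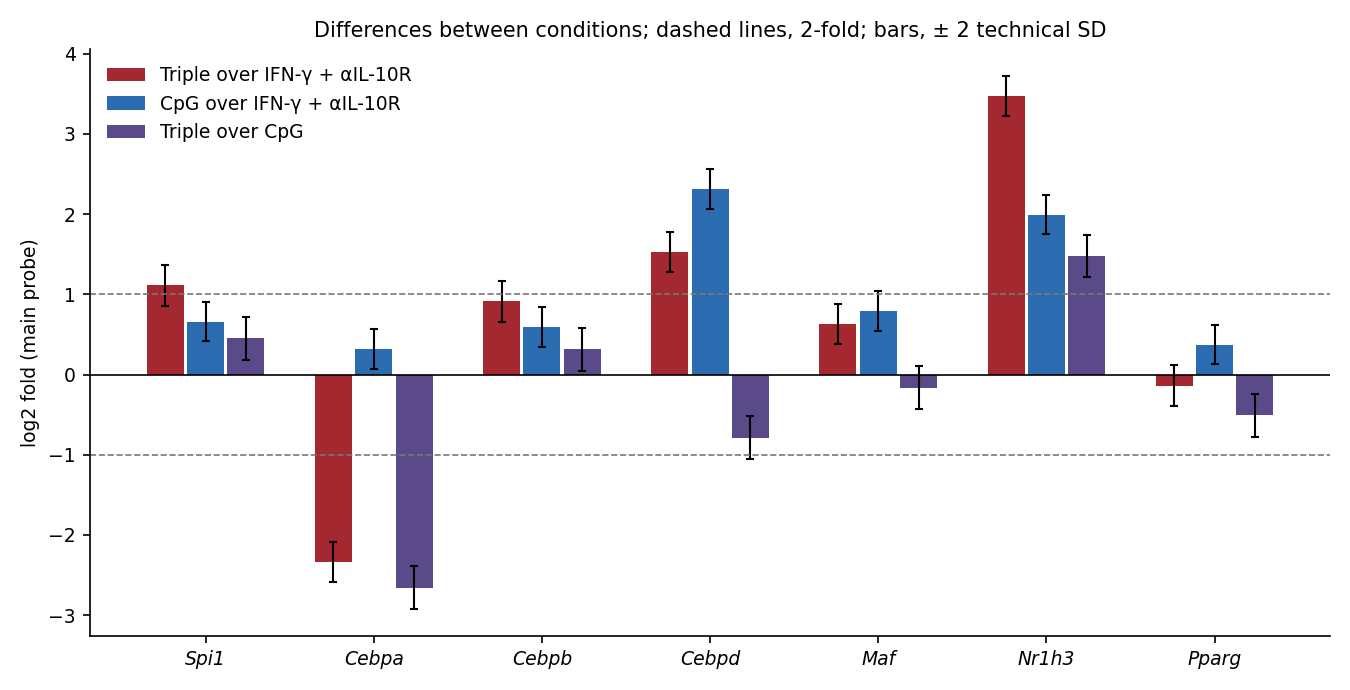
Log2 folds of the main probes in the 3 comparisons, with dashed lines at 2-fold. Bars are ± 2 technical SD, pooled over all probes with replicate spots and the same for every gene in a comparison. Nr1h3 was past 2-fold in all 3 comparisons, Cebpa reached -2.66 for Triple over CpG, and no fold of Cebpb, Maf, or Pparg crossed a dashed line.

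Of the 7 genes, 3 had probes on chromosome 2, and those of Spi1 and Nr1h3 were 70.8 kb apart on mm9. Between these probes lay the probes of 2 other genes, Mybpc3 (a cardiac myosin-binding protein) and Madd. Mybpc3 had signals of 88.6 in CpG, 33.0 in IFN-γ + αIL-10R, and 144 in Triple, a log2 fold of 2.16 for Triple over IFN-γ + αIL-10R, 0.76 for Triple over CpG, and 1.40 for CpG over IFN-γ + αIL-10R. Madd had 85974, 110408, and 180017, with log2 folds of 0.74, 1.12, and -0.39. Both were higher in Triple than in either other array, as Spi1 and Nr1h3 were. These neighbours were looked up after the values of Spi1 and Nr1h3 were known.

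For the 4 genes past 2-fold, the genes with the most similar pattern were those with the smallest Euclidean distance of centred log2 signals over the 3 arrays, among 11499 named genes well above background on all of them. With 3 points, close matches are easily found. Spi1 was closest to Micall2 (distance 0.004), Rcl1 (0.020), and Lpcat2 (0.034), and 26 genes lay within 1 SD of replicate spots. Cebpa was closest to Fabp7 (0.13), Gamt (0.14), and Mboat1 (0.14), with 0 genes within 1 SD. Cebpd was closest to Sez6l2 (0.079), Zfp719 (0.090), and Herpud1 (0.13), with 1 gene within 1 SD. Nr1h3 was closest to Npcd (0.11), Ier3 (0.16), and Ankrd33b (0.18), with 0 genes within 1 SD.

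Other transcription factors of the myeloid lineage moved in both directions beside the 7. Of 21 measured, 5 were more than 2-fold higher and 5 lower in Triple than in IFN-γ + αIL-10R. Of all genes, 3.53% and 5.01% were so, and of those above background on every array 5.13% and 8.24%. The median log2 fold was 0.24, beside -0.04 for all genes well above background. Klf2 (log2 fold -2.82), Id3 (-2.48), Nr4a1 (-1.45), Bhlhe41 (-1.19), and Fli1 (-1.07) were lower. Spic, an ETS factor related to PU.1, had the largest rise in the list, with 2323 in CpG, 87.4 in IFN-γ + αIL-10R, and 2785 in Triple, a log2 fold of 5.02. Ets2 (3.33), Bhlhe40 (1.91), and Klf4 (1.60) were higher, as was Spib, at least 2.13-fold, whose signal was not well above background in IFN-γ + αIL-10R.

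For CpG over IFN-γ + αIL-10R, 5 of the 21 were higher and 4 lower, with a median of 0.26. Of all genes, 2.75% were higher and 3.18% lower, and of those above background on every array 3.74% and 4.84%. Spic (4.71), Ets2 (3.42), Batf3 (1.32), Bhlhe40 (1.15), and Spib (at least 3.72-fold) were higher, and Id3 (-2.03), Irf8 (-1.96), Klf2 (-1.72), and Nr4a1 (-1.18) were lower. Irf8, the interferon-responsive partner of PU.1, had 20183 in CpG, 77123 in IFN-γ + αIL-10R, and 89361 in Triple, so that both arrays with IFN-γ were high. For Triple over CpG, 2 were higher, Irf8 (2.20) and Klf4 (1.69). Another 3 were lower, Bhlhe41 (-1.65), Fli1 (-1.25), and Klf2 (-1.10), and the median was -0.18. Of all genes, 4.08% were higher and 4.55% lower, and of those above background on every array 5.99% and 7%.

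Among 6 relatives and regulators of the C/EBP proteins, 1 was higher and 1 lower in Triple than in IFN-γ + αIL-10R, with a median of 0.10. Of all genes, 3.53% were higher and 5.01% lower, and of those above background on every array 5.13% and 8.24%. Trib1, a pseudokinase known to send C/EBPα protein to degradation, had 5040 in CpG, 481 in IFN-γ + αIL-10R, and 2584 in Triple. The log2 fold of Trib1 was 2.46 for Triple and 3.36 for CpG over IFN-γ + αIL-10R. For CpG over IFN-γ + αIL-10R it was the only one of the 6 past 2-fold. There 5.93% of all genes passed in either direction, and 8.58% of those above background on every array. Cebpe, the C/EBP gene of granulocytes, had 182, 320, and 73.6, and was lower in Triple by a log2 fold of -2.09 against IFN-γ + αIL-10R and -1.25 against CpG. Nfil3 was higher in Triple than in CpG, with a log2 fold of 1.31. For Triple over CpG the shares in either direction were 8.63% of all genes and 13% of those above background on every array. Cebpg gave a log2 fold of -0.00 and Ddit3 of 0.10 for Triple over IFN-γ + αIL-10R, and Trib2 was not above background on any array.

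Of 13 measured partners and cofactors of the nuclear receptors, 0 were higher and 2 lower in Triple than in IFN-γ + αIL-10R, near the 5.13% and 8.24% of all genes above background, with a median of -0.18. The LXRβ gene Nr1h2, the paralog of Nr1h3, had 13964 in CpG, 21663 in IFN-γ + αIL-10R, and 21784 in Triple, a log2 fold of 0.04 where that of Nr1h3 was 3.47. The RXR genes Rxra and Rxrb gave -0.20 and -0.13. Rxra had signals of only 58.2, 54.0, and 45.9, near the lowest counted as well above background, whereas Rxrb had 13415, 14440, and 12897. The coactivators Ncoa1 (-1.18) and Ncoa3 (-1.17) were the lower ones, although Ncoa3 was at -0.05 on its other probe. For CpG over IFN-γ + αIL-10R, Ppargc1b (-2.42) and Nrip1 (-1.22) were lower and 0 higher. Ppargc1b (2.16) was higher and 0 were lower in Triple over CpG. The shares in either direction of genes above background on every array were 8.58% and 13% for these comparisons, in that order.

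**Figure D3:**
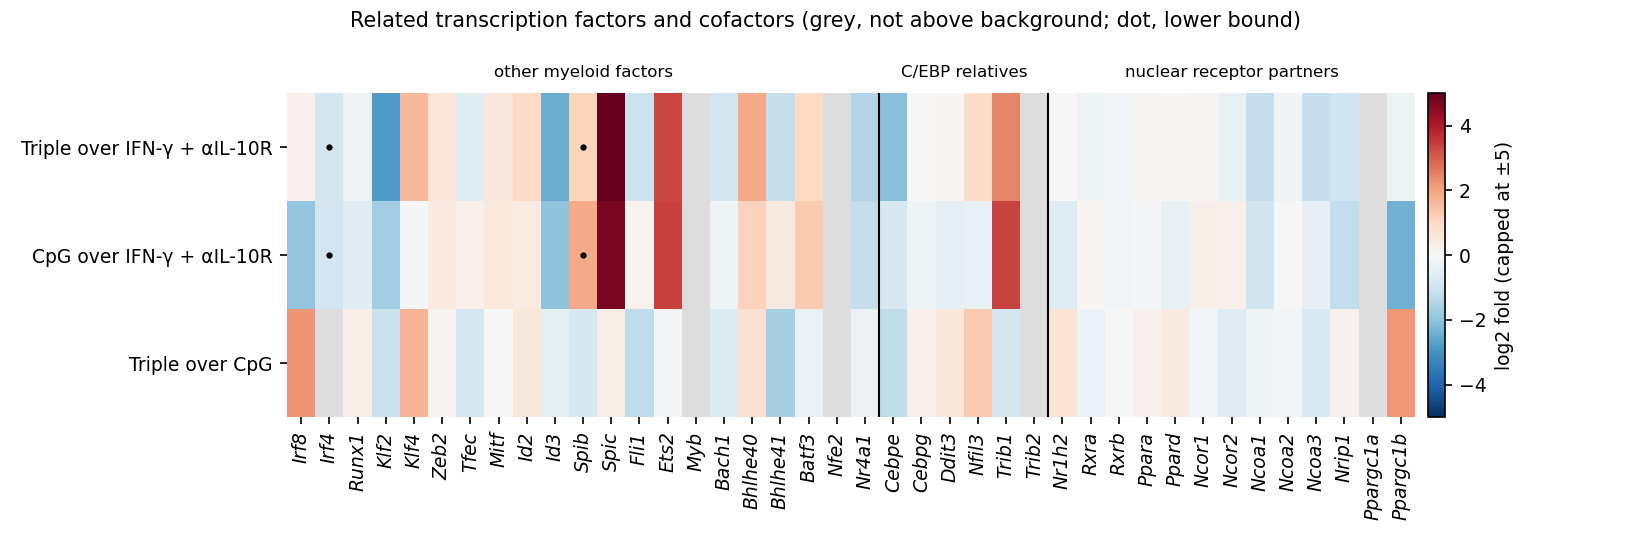
Log2 folds of related transcription factors and cofactors (columns) in the 3 comparisons (rows), coloured from blue (lower) to red (higher) and capped at ±5. Grey cells were not well above background in either array, and dots are lower bounds. Spic and Ets2 were high in both comparisons with IFN-γ + αIL-10R, and Klf2 was low in all 3 comparisons.

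Genes known as targets of these factors were counted in the same way, from lists of textbook targets. Many are controlled by other factors too, so that their counts do not measure the activity of a member. Of 14 measured PU.1 targets, 2 were higher and 1 lower in Triple than in IFN-γ + αIL-10R, with a median of 0.03. This is near the share of 13.4% in either direction among all genes above background on every array. Cd14, the LPS coreceptor, had 55389 in CpG, 5534 in IFN-γ + αIL-10R, and 90961 in Triple, a log2 fold of 4.07. Cybb, the NADPH oxidase subunit, was also higher, by 2.30-fold, and Cd68 (-1.17) was lower. The M-CSF receptor gene Csf1r gave -0.50 and was not past 2-fold. For CpG over IFN-γ + αIL-10R, Cd14 (3.30) and Itgam (1.33) were higher and Fcgr3 (-1.31) and Fcgr1 (-1.06) lower. For Triple over CpG only Cybb (1.35) passed 2-fold among the 14. The shares in either direction of genes above background on every array were 8.58% and 13%, in that order.

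Of 9 C/EBP targets, 7 were higher and 0 lower in Triple than in IFN-γ + αIL-10R, beside 3.53% and 5.01% of all genes. The median log2 fold was 5.85 over the 7 that were above background in either array, 3 of them at lower bounds. Il6 had 319 in CpG, was not well above background in IFN-γ + αIL-10R, and had 24279 in Triple, at least 930.1-fold higher. Il1b had 1445 in CpG and 30090 in Triple and was not well above background in IFN-γ + αIL-10R, at least 1153-fold lower than in Triple. Nos2, the inducible nitric oxide synthase, had 155, 448, and 72449, and Ptgs2, the inducible cyclooxygenase, had 142, 513, and 29014, in the order CpG, IFN-γ + αIL-10R, and Triple. Their log2 folds were 7.37 and 5.85 for Triple over IFN-γ + αIL-10R. Nos2 and Ptgs2 were lower in CpG than in IFN-γ + αIL-10R, by -1.56 and -1.88. Lcn2 (4.20) and Saa3 (1.29) were higher as well, and Csf3 was at least 2.91-fold higher. Ptx3 and Arg1 were not above background on any array.

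The order of the 3 arrays differed among the C/EBP targets. Saa3, with 277178 in CpG, 77748 in IFN-γ + αIL-10R, and 185873 in Triple, had the order of Cebpd, which was also that of Maf. Il6, Il1b, and Lcn2, with 8253, 637, and 11492 for Lcn2, had the order of Cebpb. Nos2 and Ptgs2 were highest in Triple and lowest in CpG, an order that none of the 3 C/EBP genes had. For CpG over IFN-γ + αIL-10R, 4 of the 9 were higher and 2 lower, with a median of 2.68. The shares over all genes were 2.75% and 3.18%. For Triple over CpG 5 were higher and 0 lower, with a median of 4.44, beside 4.08% and 4.55% of all genes. None of the 9 had the order of Cebpa.

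Of the 4 Maf targets, Il10 was more than 2-fold higher in all 3 comparisons. It had 3117 in CpG, 1271 in IFN-γ + αIL-10R, and 9957 in Triple, and was 8.0-fold higher in Triple and 2.41-fold higher in CpG than in IFN-γ + αIL-10R, and 3.32-fold higher in Triple than in CpG. The C1q genes C1qa, C1qb, and C1qc gave -0.17 each for Triple over IFN-γ + αIL-10R, and none passed 2-fold in any comparison. The median of the 4 was -0.17, -0.59, and 0.46 in the order Triple over IFN-γ + αIL-10R, CpG over IFN-γ + αIL-10R, and Triple over CpG. In that order, 5.13%, 3.74%, and 5.99% of genes above background on every array were higher, and 8.24%, 4.84%, and 7% were lower.

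Of 13 measured LXR targets, 0 were higher and 3 lower in Triple than in IFN-γ + αIL-10R, beside 5.13% and 8.24% of all genes above background on every array. Of the 13, 12 were above background in this comparison, and a count of 0 of 12 higher is near that share. The 3 lower were a larger share, but of 12 genes only. The median log2 fold was -0.39, beside 3.47 for Nr1h3. Abca1, the cholesterol transporter, had 2625 in CpG, 1625 in IFN-γ + αIL-10R, and 599 in Triple, a log2 fold of -1.41. Abcg1 had 16904, 31791, and 14806 in that order, a log2 fold of -1.07. Scd2, a fatty acid desaturase, had 2463, 1443, and 219, a log2 fold of -2.69. The desaturase gene Scd1 was not above background on any array. Srebf1 (-0.10), Apoe (-0.29), Mylip (0.03), and Lpcat3 (0.43) were not past 2-fold.

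For CpG over IFN-γ + αIL-10R, where Nr1h3 gave 1.99, the LXR target Cd5l was higher (2.01), Mertk was lower (-1.31), and the median was 0.18. Cd5l, also known as AIM, had 76373 in CpG, 18603 in IFN-γ + αIL-10R, and 17080 in Triple. For Triple over CpG, where Nr1h3 gave 1.48, Mertk was higher (2.02) and Scd2 (-3.44), Cd5l (-2.11), Abca1 (-2.08), and Pltp (-1.08) were lower, with a median of -0.34. Mertk, a receptor for apoptotic cells, had 812, 1983, and 3164. Of genes above background on every array, 3.74% were higher and 4.84% lower for CpG over IFN-γ + αIL-10R. For Triple over CpG these shares were 5.99% and 7%.

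Of 8 PPARγ targets, 0 were higher and 2 lower in Triple than in IFN-γ + αIL-10R, with a median of -0.47. Of the 8, 6 were above background in this comparison. The shares of all genes above background were 5.13% and 8.24%, so that 0 of 6 higher is near the background. The 2 lower were a larger share, but of 6 genes only. Angptl4, an inhibitor of lipoprotein lipase, had 733 in CpG, 1341 in IFN-γ + αIL-10R, and 88.3 in Triple, a log2 fold of -3.89. Lpl, the lipase itself, had 144710, 149111, and 38777, a log2 fold of -1.91. For CpG over IFN-γ + αIL-10R, Fabp4 was higher (2.36) and Cpt1a lower, only just past 2-fold, with a median of -0.14. Of genes above background on every array, 3.74% were higher and 4.84% lower. For Triple over CpG, 0 were higher and Angptl4 (-3.00), Fabp4 (-1.92), and Lpl (-1.84) were lower, with a median of -1.34. There the shares were 5.99% and 7%. Fabp4, the fatty acid-binding protein, had 4048, 775, and 1029. Fabp4 and Plin2 were highest in CpG, as Pparg was, whereas Cd36, Angptl4, Cpt1a, and Lpl were highest in IFN-γ + αIL-10R. Arg1 and Pdk4 were not above background on any array.

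**Figure D4:**
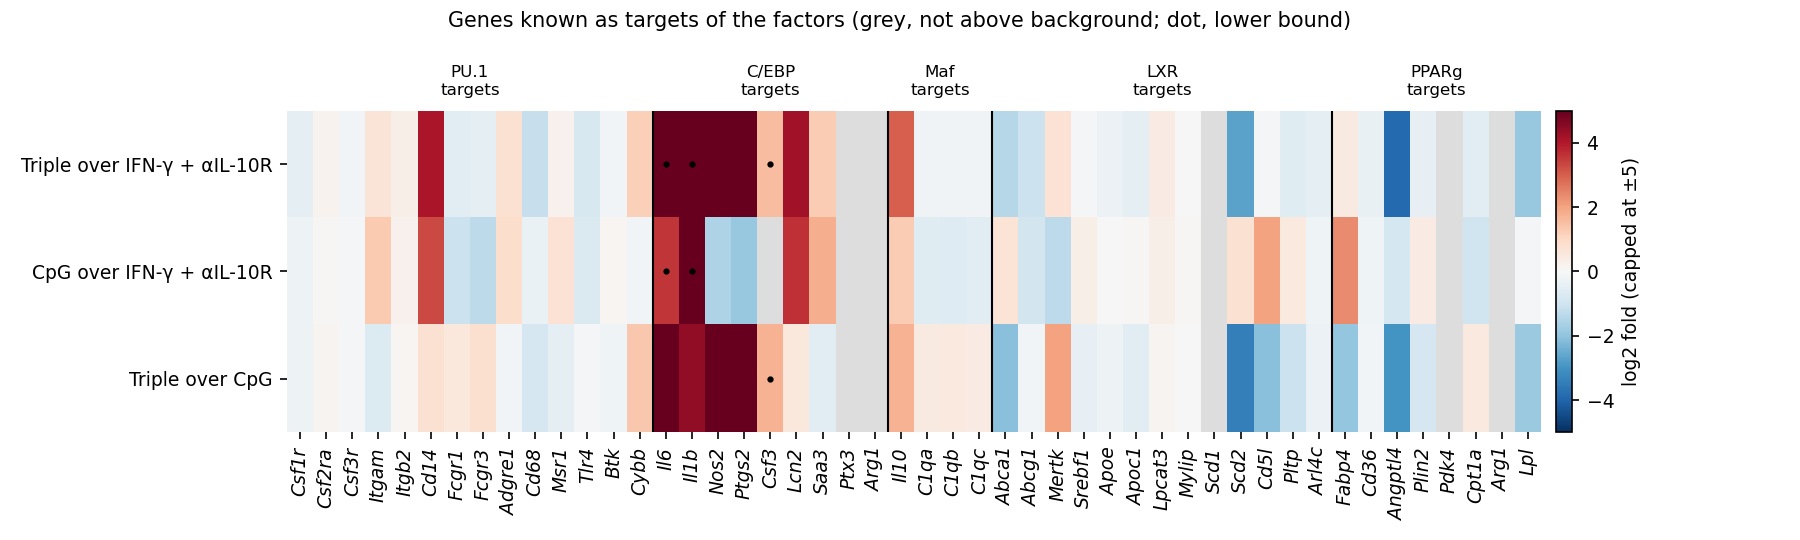
Log2 folds of genes known as targets of the factors (columns, by factor) in the 3 comparisons (rows), coloured from blue (lower) to red (higher) and capped at ±5. Grey cells were not well above background in either array, and dots are lower bounds. The C/EBP block held 7 genes higher in Triple than in IFN-γ + αIL-10R, and the LXR and PPARγ blocks held 0 higher and 5 lower, beside 5.13% higher and 8.24% lower among all genes above background on every array.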

How the data were processed

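BMDMs of 3 conditions were measured with 1 Agilent 60-base array each, all on 1 slide with 1 scan time and each at its own position, so that position and condition cannot be told apart. The authors deposited scanner output (Agilent Feature Extraction 10.10.1.1). The authors' processed signal is a linear intensity from which the scanner software had subtracted background, not scaled between arrays, and comes with the gene names and mm9 positions of the array design. A log2 table that the authors deposited too was that signal's log2 minus 1 constant per array (99.9% of values within 0.05) and served as an alternative.

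Controls and the spots marked as outliers (3.04% to 3.78%) were dropped, which left 52752 probes. Replicate spots were averaged as log2 values. As 44.2% of probes were well above background on average, under 50%, log2 signals were shifted by the 75th percentile of the 21229 probes that were so on every array. A gene was represented by the probe with the highest mean signal. A dim signal was raised to the lowest signal well above background (23.8, 26.7, and 26.3 for CpG, IFN-γ + αIL-10R, and Triple), so that folds against it are lower bounds, written as at least a value.

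Members, gene lists, and motifs were chosen with earlier results of these data known. Genes are named as members of the lists, by the pattern rule, or as neighbours. Lyz2, Gata2, Gfi1, Cpa3, and Ppia had no probe left on all arrays after outlier spots were dropped. Of the listed genes, 2 are not reported here. Adgre1 is Emr1 on the array. No test was possible with 1 array per condition. The number of arrays limits the precision. The code was tested on simulated arrays. Alternatives were no scaling, scaling by quantiles, medians, Actb, or spike-ins (5 of 10 probes), normexp (limma 3.58.1 in R 4.3.3, offset 50), the percentile over all probes, the authors' table, other filters and probe rules, and thresholds of 1.5-fold and 3-fold. Calculations used Python 3.11.15, numpy 2.4.6, and pandas 2.3.3.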

Additional observations from a re-analysis of the deposited data

How the results depend on the processing

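No paired analysis was possible because there was 1 array for every condition, and for the same reason no array could be left out. The 21 folds of the 7 genes were recomputed under 13 alternatives. Of the 273 values, 273 kept their sign and 270 kept their side of 2-fold. Not all of these values could change. The other filters left the folds as they were, because every member was well above background on all arrays. The probe rules could act only on Maf and Nr1h3, which had a second probe. The authors' table and the percentile over all probes gave nearly the same folds. The exceptions were Spi1 for Triple over IFN-γ + αIL-10R, at 0.97 with spike-in scaling, and Cebpb in the same comparison, at 1.02 both in the authors' table and with the percentile of all probes. Cebpa ranged from -2.48 to -1.93 for Triple over IFN-γ + αIL-10R and from -2.76 to -2.21 for Triple over CpG, and Nr1h3 from 3.33 to 3.59 and from 1.33 to 1.55. Scaling moved the median of all genes by 0.11 (percentile over all probes, authors' table) and -0.14 (spike-in) for Triple over IFN-γ + αIL-10R. For Triple over CpG spike-ins moved it by -0.10.

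Other thresholds changed the counts by construction. With a threshold of 3-fold, 1 of the 7 genes passed for Triple over CpG and 2 for Triple over IFN-γ + αIL-10R. With 1.5-fold, 5 passed for CpG over IFN-γ + αIL-10R. Over all genes, Triple over IFN-γ + αIL-10R gave 2869 genes past 2-fold, 1904 with normexp, 5611 with no filter, 5552 at 1.5-fold, and 1443 at 3-fold. CpG over IFN-γ + αIL-10R gave 1993, with 1262, 4871, 4396, and 936 in that order, and Triple over CpG gave 2899, with 1856, 5789, 5634, and 1407. The cause of the fall with normexp was not tested. Signals near background, such as those of Spib, Csf3, Rxra, and Mybpc3, limit what the folds of dim genes can show.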
